A study of Mus musculus with 12 samples.

Results

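The response examined here is that of fibroblasts cultured from embryos of IRAK4 kinase-dead mice (KD) to 1 h of interleukin-1 beta (IL-1b), set against unstimulated fibroblasts of the same genotype. It rests on 4 of the 12 arrays of the series, chosen by their titles. The groups were KD cells with mouse IL-1b at 1 ng/ml over 1 h, KD cells grown for 4 h without IL-1b, wild-type cells (WT) with the same dose over 1 h, and WT cells grown for 4 h without IL-1b. KD and WT cells given IL-1b for 4 h were used for levels only. Each group had 2 arrays, which the series design calls biological replicates without naming animals or cultures, so p-values measure the spread between these samples, which may be technical. All cells grew in serum-containing medium, and the labels name a kinase-dead form of IRAK4 without saying how much of the protein the cells hold. The title of 1 unstimulated WT array names no genotype, and the array was placed by the series design. IL-1b and time in culture changed together between the 1 h cells and their 4 h control, and cannot be told apart.

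IL-1b binds a receptor on the cell surface that brings in the adaptor MyD88, which in turn gathers the kinases IRAK4 and IRAK1 and the ubiquitin ligase TRAF6. From there one branch frees the transcription factor NF-kB from its inhibitors, and another runs through MAP kinases to AP-1 and to the ternary complex factors that act with SRF. In fibroblasts this produces chemokines and cytokines that call in leukocytes, and a short burst of immediate early genes, many of which encode transcription factors or inhibitors of the signal itself.

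RNA was measured on 1-colour arrays as MAS5 signal, a linear intensity with 1 value per probe set. Array medians were 23 to 28.3 signal units over the 12 arrays, and the correlation between the 2 arrays of a group was 0.967 to 0.975 on the log2 scale. The number of arrays limits the precision. Collagen genes were bright on the KD arrays, with Col1a1 at 5721 and 5200.5 in KD 1 h cells and 5425 and 5486 in unstimulated KD cells, and none of the 11 fibroblast markers stayed under the filter threshold of 25.5. Some were dimmer in KD than in WT cells, with Lum at 56.9 to 70.8 on the 4 KD arrays and 277.2 to 449.5 on the 4 WT arrays, and Pdgfra at 118.2 to 182.6 and 580.7 to 810.9 on the same KD and WT arrays. Macrophage markers (10 on the array) summed to 557.7 to 565 in KD 1 h cells, 535.9 to 545.2 in unstimulated KD cells, 245.4 to 261.2 in WT 1 h cells and 227.1 to 258.2 in unstimulated WT cells. Lyz2 was the largest part of these sums, at 268.1 to 319.1 on the 4 KD arrays and 97.4 to 128.3 on the 4 WT arrays. Tyrobp and the dim Adgre1, Cd14 and Aif1 were also higher on the KD arrays, while Cd68, Csf1r, Fcgr3, Fcgr1 and Itgam overlapped. Neural markers (6) summed to 697.1 to 746.4 in KD 1 h cells and 644.6 to 685.9 in unstimulated KD cells, against 412.9 to 474.7 in WT 1 h cells and 441.4 to 459.4 in unstimulated WT cells. The glial gene Fabp7 was at 272 and 259 in KD 1 h cells and 227 and 185 in unstimulated KD cells, and at 26.4 and 34.1 in WT 1 h cells and 38.5 and 28.8 in unstimulated WT cells. The neural list was mixed. Sox2 and Nes were also higher on the 4 KD arrays than on the 4 WT arrays, while Tubb3 and Gfap overlapped. Map2 was lower in KD 1 h cells (72.9 and 108.6) than in WT 1 h cells (213.1 and 257.1), and overlapped without IL-1b. The part of these standing differences between the cultures in the comparison of KD with WT responses was not tested. Of 6 endothelial markers 5, and of 6 epithelial markers 4, stayed under 25.5 on all 4 KD arrays. The ratio of 3' to 5' actin probe sets, which reflects RNA integrity and amplification, was 2.35 and 2.48 in KD 1 h cells and 2.86 and 2.83 in unstimulated KD cells, and these do not overlap. Its part in the results was not tested. Fewer cells of a type and less RNA per cell cannot be told apart in such samples, and no marker of any list passed in the KD response. Irak4 itself was not analysed here, and a transcript level says nothing of kinase activity.

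Immediate early transcription factor genes rose in KD cells within 1 h. Signals are given for replicates 1 and 2, and changes as log2 fold changes on the log2(signal + 8) scale with their SE. Fos, whose product pairs with Jun proteins to form AP-1, had signals of 1611 and 1697 in KD 1 h cells, against 109 and 98.3 in unstimulated KD cells. Its log2 fold change was 3.89 ± 0.28 (SE, n = 2 arrays in each group; adjusted p = 4.63e-07, limma). Egr3, a zinc-finger factor of the early growth response family, had 2092 and 2564 in KD 1 h cells and 261 and 311 in unstimulated KD cells, a rise of 2.99 ± 0.13. Egr2 of the same family had 3715 and 4069 in KD 1 h cells and 909 and 1433 in unstimulated KD cells (1.76 ± 0.16), and Egr1 had 5870.2 and 6111 in KD 1 h cells and 2125 and 2424 in unstimulated KD cells (1.40 ± 0.09). The groups did not overlap in any of these, and Egr1 and Egr2 were already among the brighter transcripts without IL-1b. Nr4a1, an orphan nuclear receptor induced by many stimuli, rose by 2.17 ± 0.20, with 223 and 269.9 in KD 1 h cells and 37.4 and 62.2 in unstimulated KD cells. Jun rose by 1.19 ± 0.09 from a brighter level, with 3459.8 and 3529 in KD 1 h cells and 1449.7 and 1607 in unstimulated KD cells.

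**Figure D1:**
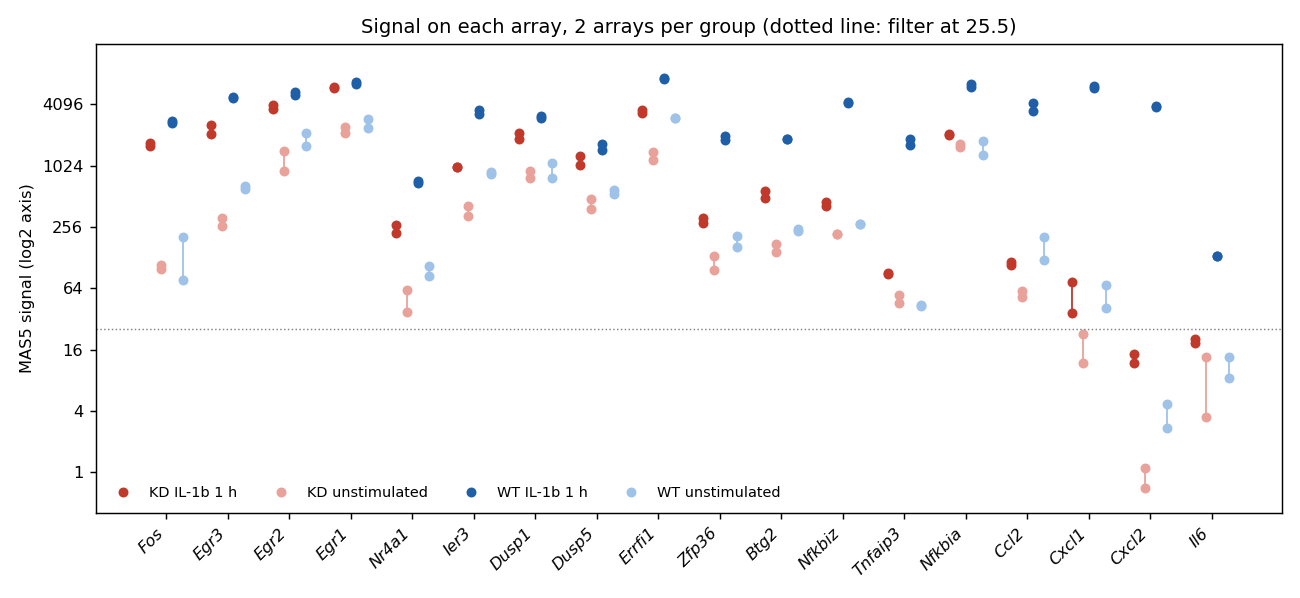
MAS5 signal on a log2 axis for 18 genes. Each point is 1 of 2 arrays per group, with KD IL-1b 1 h in red, KD unstimulated in pale red, WT IL-1b 1 h in blue and WT unstimulated in pale blue; the dotted line is the filter threshold of 25.5. Fos, Egr3, Egr2 and Egr1 stand clear of the control in both genotypes, while Cxcl2, Cxcl1 and Tnfaip3 are high in WT 1 h cells and low in KD 1 h cells.

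Of the 38 genes of the immediate early list that were tested, 18 rose, 0 fell and 20 did not pass. Over all 12456 genes tested, 193 rose, which is 1.55%, and 214 fell, which is 1.72%, a call being a limma adjusted p under 0.05. The list's median log2 fold change was 0.53, against -0.01 over all genes. Beside the genes above, Fosb (2.14 ± 0.48), Ier2 (1.94 ± 0.28), Btg2 (1.70 ± 0.13), Ier3 (1.40 ± 0.10), Csrnp1 (1.21 ± 0.20), Ier5 (1.16 ± 0.15), Nr4a3 (1.10 ± 0.22), Junb (1.07 ± 0.26) and Atf3 (1.05 ± 0.20) rose. Fosb and Junb were dim, with Junb at 47 and 72.9 in KD 1 h cells and 24.1 and 23.5 in unstimulated KD cells, and their adjusted p reached 0.223 and 0.291 when single arrays were left out. Fos, Egr1, Egr2, Egr3, Nr4a1, Btg2, Ier3 and Jun kept their call in all 12 fits that left out 1 array.

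Inhibitors of MAP kinase and receptor kinase signalling formed the next group. Of 24 genes tested, 11 rose, 0 fell and 13 did not pass, and the median was 0.54. Errfi1, whose product binds and inhibits the EGF receptor, had 3386 and 3612 in KD 1 h cells and 1152 and 1392 in unstimulated KD cells, a rise of 1.46 ± 0.10 (adjusted p = 3.41e-07). Dusp5, a nuclear phosphatase that acts on ERK, had 1259 and 1044 in KD 1 h cells and 388 and 479 in unstimulated KD cells (1.39 ± 0.14). Dusp1, a phosphatase that acts on p38 and JNK, had 1879.9 and 2117 in KD 1 h cells and 782 and 910 in unstimulated KD cells (1.23 ± 0.14), and the cytoplasmic ERK phosphatase Dusp6 had 593 and 704 in KD 1 h cells and 244 and 312 in unstimulated KD cells (1.20 ± 0.16). In all 4 the 2 KD 1 h arrays lay above both control arrays. Spry2, a feedback inhibitor of receptor kinase signalling, rose by 1.28 ± 0.12, and Plk2, a serine/threonine kinase, by 1.20 ± 0.13. Spred2 (0.85 ± 0.18), Spry4 (0.84 ± 0.21), Phlda1 (0.95 ± 0.16), Lrig1 (0.75 ± 0.18) and Rgs16 (0.75 ± 0.15) made up the rest.

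Secreted and signalling genes outside the NF-kB group changed in smaller number. Edn1 encodes endothelin-1, a vasoconstrictor, and had 125 and 136 in KD 1 h cells and 39.9 and 34.5 in unstimulated KD cells, a rise of 1.61 ± 0.22 (adjusted p = 0.000543). Ereg, which encodes the EGF receptor ligand epiregulin, was the 1 of 9 EGF receptor ligand and receptor genes that rose (0.90 ± 0.14). Of 24 secreted growth factor, vasoactive and coagulation genes, 3 rose and 1 fell. They were Edn1, F3 (0.88 ± 0.16), the gene of tissue factor, Ccn1 (0.52 ± 0.11), a matricellular protein, and Pdgfa (-0.34 ± 0.09). Sgk1, a kinase of the AGC family induced by serum and glucocorticoids, had 2763 and 2796 in KD 1 h cells and 958 and 1179.5 in unstimulated KD cells (1.38 ± 0.10). Among 25 genes of TGF-beta and BMP signalling, Id1 (1.12 ± 0.21), Id2 (0.56 ± 0.13) and Tgif1 (0.84 ± 0.15) rose, and the receptor gene Tgfbr1 fell (-0.38 ± 0.09). Of 25 contractile, SRF and YAP target genes, Amotl2 alone passed (0.41 ± 0.10). Edn1, Ereg and Sgk1 kept their call in all 12 fits that left out 1 array. The others did not, with adjusted p up to 0.308 for Tgfbr1, 0.3 for Pdgfa, 0.27 for Id2, 0.255 for Amotl2, 0.158 for Ccn1, 0.109 for F3, 0.0936 for Id1 and 0.0813 for Tgif1. Each of these highest values came without 1 of the 4 KD arrays compared.

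Feedback genes of NF-kB rose in part in KD cells. Nfkbiz, which encodes a nuclear IkB protein needed for secondary NF-kB genes, had 453 and 412 in KD 1 h cells and 216 and 219 in unstimulated KD cells, a rise of 0.96 ± 0.09 (adjusted p = 9.96e-06). Another of its 3 tested probe sets changed by 0.68 (adjusted p = 0.122), and the remaining one -0.34 (adjusted p = 0.287), both adjusted over all probe sets. Tnfaip3, whose product A20 is a ubiquitin-editing inhibitor of NF-kB, had 88.9 and 90.6 in KD 1 h cells and 46 and 55.4 in unstimulated KD cells (0.74 ± 0.14, adjusted p = 0.00911), but lost the call without KD 1 h replicate 1 or 2 or unstimulated KD replicate 1 (adjusted p of 0.0626, 0.0784 and 0.0709). Nfkbia, the gene of IkB-alpha, had 2034 and 2079 in KD 1 h cells and 1572 and 1659.8 in unstimulated KD cells (0.35 ± 0.11, adjusted p = 0.107) at its brightest probe set. Those groups do not overlap, yet the change did not pass. Its other 4 tested probe sets did pass over all probe sets, with 0.83, 0.63, 0.64 and 0.53, so the call of Nfkbia depends on the probe set. Of the 13 genes of NF-kB subunits and feedback inhibitors tested, 2 rose, 1 fell and 10 did not pass. The 1 that fell was Tnfaip2, a gene induced by tumour necrosis factor, with 263 and 286 in KD 1 h cells and 498 and 753 in unstimulated KD cells (-1.14 ± 0.18). Its other 2 tested probe sets were dimmer and had log2 fold changes of 0.21 and 0.29 (adjusted p of 0.713 and 0.859).

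Among the chemokine genes 4 of 21 rose in KD cells and 0 fell, with a list median of -0.15. The neutrophil attractant Cxcl1 had 73.8 and 36.7 in KD 1 h cells and 22.8 and 11.7 in unstimulated KD cells (1.30 ± 0.25, adjusted p = 0.00851). Cxcl2, another neutrophil attractant, had 14.4 and 11.9 in KD 1 h cells and 1.1 and 0.7 in unstimulated KD cells, all under 25.5, and passed the filter through other arrays. It was called (adjusted p = 0.000348), but the size of its change was 1.25, 2.90 or 0.46 with a pseudocount of 8, 1 or 32, so no size is drawn from it. The monocyte attractant Ccl2 had 107 and 116 in KD 1 h cells and 60.6 and 53 in unstimulated KD cells (0.89 ± 0.17), and Ccl7, a related attractant, had 35.8 and 45 in KD 1 h cells and 20.5 and 14.9 in unstimulated KD cells (0.92 ± 0.16). Without unstimulated KD replicate 2 the adjusted p was 0.157 for Cxcl1, 0.101 for Ccl2 and 0.0664 for Ccl7. It was 0.13 for Cxcl1 without KD 1 h replicate 1, and 0.083 for Ccl2 and 0.0706 for Ccl7 without KD 1 h replicate 2. Ccl20, which attracts cells bearing CCR6, had 2.7 and 3.5 in KD 1 h cells and 14.4 and 4.8 in unstimulated KD cells (-0.61 ± 0.24, adjusted p = 0.186), and Cxcl5 had 2.2 and 3.6 in KD 1 h cells and 0.8 and 10.2 in unstimulated KD cells. The values of Ccl20 and Cxcl5 lie near the bottom of the scale and give no direction.

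Cytokine genes of the IL-6 family did not pass in KD cells. Il6 had 18.5 and 20.5 in KD 1 h cells and 3.5 and 13.6 in unstimulated KD cells (0.80 ± 0.27, adjusted p = 0.132), and Lif had 92.2 and 103 in KD 1 h cells and 61.4 and 77.2 in unstimulated KD cells (0.45 ± 0.14, adjusted p = 0.104). Of 16 cytokine genes, 2 rose. They were Tnfsf11, the gene of RANK ligand, with 71.9 and 48.2 in KD 1 h cells and 16.7 and 30.5 in unstimulated KD cells (1.12 ± 0.21), and Il1rn, the gene of the IL-1 receptor antagonist, with 1793 and 1440.5 in KD 1 h cells and 976 and 970.5 in unstimulated KD cells (0.72 ± 0.14). Ptgs2, the gene of the inducible cyclooxygenase, was bright in both groups and rose by 0.50 ± 0.12 (adjusted p = 0.0262), and Ch25h, which encodes cholesterol 25-hydroxylase, rose by 1.06 ± 0.21. Tnfsf11, Il1rn, Ptgs2 and Ch25h each lost the call with some single array left out. The leukocyte adhesion molecule gene Icam1 had 35 and 53.2 in KD 1 h cells and 23.4 and 23.4 in unstimulated KD cells (0.71 ± 0.22, adjusted p = 0.095). Of the 16 survival genes Mcl1, an anti-apoptotic gene, rose (0.64 ± 0.10) and no other passed. That rise was at its brightest probe set. Its other tested probe sets did not pass over all probe sets, with changes of 0.11, 0.43, -0.009, 0.11 and 0.007, so the call of Mcl1 depends on the probe set. None of 25 genes for the IL-1 receptor, MyD88 and downstream kinases passed by limma, and at unadjusted p under 0.05 there were 2 higher (8%) and 1 lower (4%), near or under the 7.58% and 9.06% of all genes. Il1r1, the signalling receptor, had 249.5 and 245 in KD 1 h cells and 211 and 204 in unstimulated KD cells (0.25 ± 0.15, adjusted p = 0.435), and Myd88 had 64.2 and 78.1 in KD 1 h cells and 80.7 and 96.2 in unstimulated KD cells (-0.29 ± 0.18, adjusted p = 0.468).

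Falls in KD cells were about as many as rises in the main fit. The balance moved with the setting. There were 20 falls and 37 rises without a variance trend, and 233 falls and 203 rises with quantile normalization between arrays. The median log2 fold change of the 214 genes that fell was -0.62, and of the 193 that rose 0.67. Ret, which encodes a receptor tyrosine kinase, had 148 and 156 in KD 1 h cells and 336 and 436 in unstimulated KD cells, and fell (-1.29 ± 0.14, adjusted p = 5.27e-05). Txnip, the gene of the thioredoxin-interacting protein that limits glucose uptake, had 1065 and 1052 in KD 1 h cells and 2456 and 2033 in unstimulated KD cells (-1.07 ± 0.09, adjusted p = 3.54e-06). Hoxa9, a homeobox gene of limb and trunk position, fell too (-1.15 ± 0.19), as 1 of 26 Hox genes, while Hoxd8 rose (0.38 ± 0.10). Hoxd8 lost that call with some single array left out, and its other tested probe set changed by -0.25 without passing. Nfatc1, a calcium-regulated transcription factor gene, had 154 and 204 in KD 1 h cells and 319 and 434 in unstimulated KD cells (-1.04 ± 0.17). In Ret, Txnip, Hoxa9 and Nfatc1 both KD 1 h arrays lay under both control arrays. Gjb2, a gap junction gene, fell as well (-0.88 ± 0.09).

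Among 26 genes that ATF4 and the unfolded protein response induce, 4 fell and 0 rose, with a median of -0.32. Psat1, an enzyme of serine synthesis, had 1147 and 1106 in KD 1 h cells and 1776 and 1981 in unstimulated KD cells (-0.73 ± 0.10, adjusted p = 0.000718). At unadjusted p under 0.05, 13 of the 26 (50%) were lower and 1 higher (3.85%), against 9.06% lower and 7.58% higher over all genes. Asns, which makes asparagine (-0.51 ± 0.10), Chac1, which degrades glutathione (-0.61 ± 0.15), and the transcription factor gene Cebpg (-0.80 ± 0.15) were the others, and each of these 3 lost its call with some single array left out. Genes named Zfp and a number, mostly zinc-finger transcription factors, made up 2.14% of the genes tested and 6.54% of those that fell. Of 267 such genes 14 fell and 2 rose, and their median was -0.15; the class was noticed among the falls and then counted. Cell cycle (31 tested), collagen and matrix (19), cholesterol and fatty acid synthesis (21), interferon response (18), and STAT3 and SOCS genes (17) had 0 calls by limma in either direction. At unadjusted p under 0.05 those lists held, in the same order, 0, 0, 3, 2 and 2 genes higher and 0, 0, 3, 2 and 2 lower, where 7.58% and 9.06% of all genes were.

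Short-lived regulators of transcription moved both ways, 7 of 30 higher and 2 lower. Tiparp, a poly-ADP-ribosyltransferase gene (0.71 ± 0.18), Irf2bp2, a corepressor gene (0.70 ± 0.13), and Cited2, a CBP-binding regulator gene (0.50 ± 0.07), were among those that rose, and Hivep1, which encodes a kB-binding zinc-finger protein (-0.55 ± 0.12), fell beside Nfatc1. Hsph1, a heat shock chaperone gene, was the 1 of 16 heat shock and redox genes that passed (0.73 ± 0.13), and Ndrg1 the 1 of 22 hypoxia and glycolysis genes (-0.64 ± 0.16). Of 25 adhesion and matrix genes the protease gene Adamts5 rose (0.34 ± 0.09) and the fibronectin receptor subunit gene Itga5 fell (-0.85 ± 0.15), but Itga5 was at 0.024 (adjusted p = 0.973) with its probe sets averaged. Tiparp, Irf2bp2, Hivep1, Nfatc1, Hsph1, Ndrg1, Adamts5 and Itga5 each lost the call with some single array left out.

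**Figure D2:**
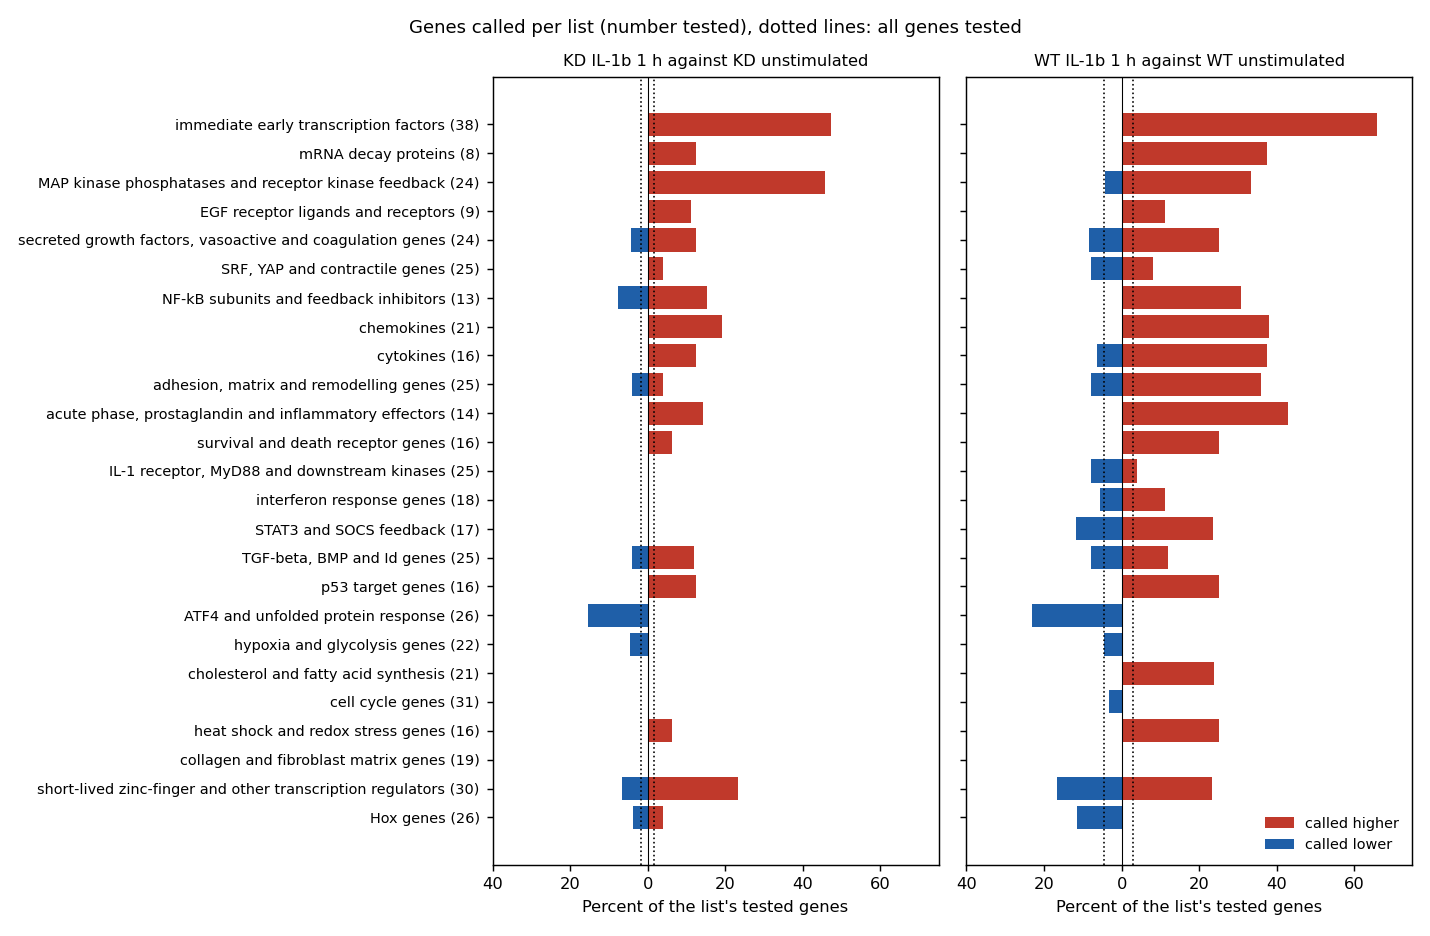
Percent of each list's tested genes called higher (red, to the right) and lower (blue, to the left) at 1 h, in KD cells on the left and WT cells on the right; the number tested is in brackets and the dotted lines give the percent over all genes. In KD cells the immediate early list (18 of 38) and the kinase feedback list (11 of 24) stand farthest to the right.

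The largest changes by size included dim transcripts. Itprip had 34.9 and 43.5 in KD 1 h cells and 3.6 and 3.8 in unstimulated KD cells (2.01 ± 0.50, adjusted p = 0.0365), and Fbxo16 had 42.2 and 26.4 in KD 1 h cells and 2.6 and 6.4 in unstimulated KD cells (1.75 ± 0.45). Among the falls, Ifitm10 had 1.6 and 2.6 in KD 1 h cells and 37.8 and 23.1 in unstimulated KD cells (-1.90 ± 0.44), and Rpl39 had 30.6 and 18.4 in KD 1 h cells and 130 and 81.5 in unstimulated KD cells (-1.80 ± 0.46). In unstimulated WT cells Rpl39 had 23.7 and 104, 1 value in the range of each KD group. All 4 lost their call with some single array left out, with adjusted p up to 0.226, 0.282, 0.161 and 0.266. Of the 42 genes that rose at least 2-fold, 12 had a KD 1 h mean under 100, and of the 32 that fell as much, 11 had an unstimulated KD mean under 100. Over all genes, a filter at 100 units on at least 2 arrays, a different measure, kept 7577 of 12456. The counts thus do not show more dim genes among the large changes than elsewhere. The genes called in all 12 fits that left out 1 array numbered 34 that rose and 19 that fell. Of these, 22 and 8 were also called under all 10 other settings that give 1 value per gene. The 22 were Fos, Egr1, Egr2, Egr3, Nr4a1, Jun, Btg2, Ier3, Edn1, Errfi1, Dusp1, Dusp5, Dusp6, Spry2, Plk2, Sgk1, Zfp36, Rhob, Otud1, Pde4b, Bnc2 and Dnajb4. The 8 were Ret, Txnip, Gjb2, Zdhhc14, Plcxd2, Zfp420, Rbak and AA386476.

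The count of 407 genes (3.27%) moved with the fit and with single arrays. It was 57 without a variance trend and 237 when all probe sets of a gene were averaged. It was 94 without unstimulated KD replicate 2, 235 without unstimulated KD replicate 1, 122 without KD 1 h replicate 1 and 108 without KD 1 h replicate 2, and 643 and 646 without unstimulated WT replicates 1 and 2. Of the 258 called genes with another tested probe set, 43 had another called the same way, 2 the opposite way (Enah and Prpf4b), and 215 had no other called. Over the 483 other probe sets of these genes, 71.2% had the sign of the gene's own.

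WT cells showed where the KD response differs. In WT cells 930 genes were called (7.47%). Of these 363 genes rose (2.91%) and 567 fell (4.55%), and with each array centred on its median, which raised the median WT change of all genes to 0.092 from -0.059, 763 rose and 255 fell. The KD and WT comparisons share no array. Of the 193 genes that rose in KD cells, 106 also rose in WT cells, which is 54.9% of the KD list and 29.2% of the WT list. Of the 214 that fell in KD cells, 122 also fell in WT cells, 57% of the KD list and 21.5% of the WT list. No gene was called in opposite directions by limma, and at unadjusted p under 0.05, 14 were higher in KD and lower in WT and 16 the reverse. Over the 106 genes that rose in both, chosen by that call, the median was 0.75 in KD cells and 0.77 in WT cells. Over the 363 genes that rose in WT cells it was 0.33 in KD cells and 0.62 in WT cells.

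**Figure D3:**
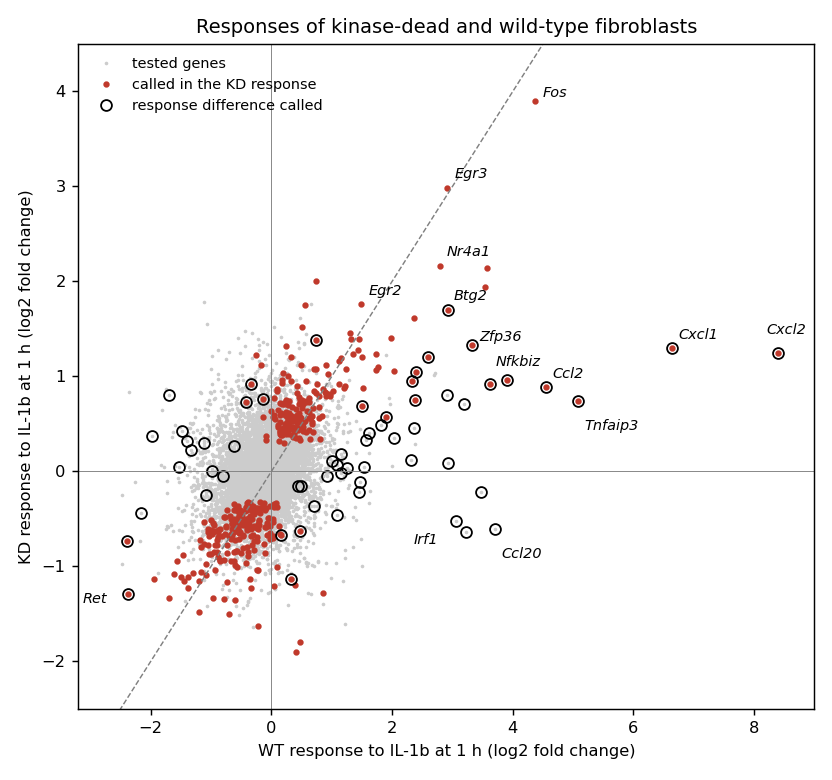
Log2 fold change at 1 h in KD cells (vertical axis) against WT cells (horizontal axis) for all genes tested. Grey points are all genes, red points the 407 called in KD cells, and open circles the 61 with a called response difference; the dashed line marks equal responses. Egr3 lies near the line, while Cxcl2 lies at 8.40 in WT cells and 1.25 in KD cells. The KD signals of Cxcl2 lay under the filter threshold, so no size is drawn from its KD value.

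Over the 38 immediate early genes the median response difference, KD minus WT, was -0.45, against 0.04 over all genes, with 11 of 38 above 0, 5 called lower and 0 higher. Over the 24 kinase feedback genes it was -0.06, with 10 above 0, 2 called lower and 0 higher. Ier2 (-1.61 ± 0.40, 95% interval -2.46 to -0.76, adjusted p = 0.128), Nr4a1 (-0.63 ± 0.28, -1.22 to -0.04, adjusted p = 0.556) and Ier3 (-0.57 ± 0.15, -0.88 to -0.26, adjusted p = 0.139) had intervals under 0 but did not pass over all genes. Others, picked here for closeness to 0, had intervals of modest width. For Egr3 the response difference was 0.08 ± 0.19 with a 95% interval of -0.32 to 0.48 (adjusted p = 0.953), with WT signals of 4743 and 4783 at 1 h and 604 and 650.1 unstimulated. For Egr1 the difference was 0.08 ± 0.13 (95% interval -0.19 to 0.35), for Jun 0.04 ± 0.13 (-0.23 to 0.31), for Dusp5 -0.06 ± 0.19 (-0.47 to 0.35) and for Spry2 -0.16 ± 0.17 (-0.52 to 0.20). These intervals include 0 and differences on both sides of it. The interval of Fos was wider, -1.32 to 0.38 around -0.47 ± 0.40, and the 2 unstimulated WT arrays had 76.3 and 202. Ptgs2 (-0.02 ± 0.17, 95% interval -0.37 to 0.33) and the brightest probe set of Mcl1 (0.04 ± 0.14, -0.26 to 0.35) lay near 0. Arid5b, Tra2a and Nck2 were among the 8 genes with the smallest differences of the 106, a closeness that the choice itself sets.

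The response difference passed in 61 genes (0.49% of those tested), 43 lower in KD (0.345%) and 18 higher (0.145%), or 55 and 9 with each array centred on its median. Of the 43, 40 rose in WT cells, and in KD cells 14 rose, 3 fell and 26 passed in neither direction. Cxcl2 had the lowest value on this scale, -7.15 ± 0.23 (adjusted p = 4.91e-12). Its KD 1 h signals were 14.4 and 11.9 against WT 1 h signals of 3885 and 3969. The WT change of Cxcl2 was 8.40, and no size is drawn from its KD change. Cxcl1 differed by -5.34 ± 0.35, Tnfaip3 by -4.35 ± 0.20 and Ccl2 by -3.66 ± 0.24. Ccl20 had 2.7 and 3.5 in KD 1 h cells and 563 and 606 in WT 1 h cells (-4.31 ± 0.33), and Cxcl5 had 2.2 and 3.6 in KD 1 h cells and 1367 and 1458 in WT 1 h cells (-3.70 ± 0.36). On the KD side Cxcl2, Ccl20 and Cxcl5 lay under 25.5 with and without IL-1b, so the sizes of their differences have no measured KD change behind them. With a pseudocount of 1 or 32 they were -6.84 and -6.34 for Cxcl2, -5.14 and -3.38 for Ccl20, and -3.78 and -3.34 for Cxcl5. Irf1, an interferon regulatory factor that NF-kB induces, had 45 and 72.6 in KD 1 h cells and 556 and 654 in WT 1 h cells, with a difference of -3.57 ± 0.31. Zc3h12a, an RNase acting on inflammatory mRNAs, had 7.8 and 29.3 in KD 1 h cells and 30 and 29.6 in unstimulated KD cells. In WT cells it had 234 and 297 at 1 h and 40.5 and 9.5 unstimulated (-3.86 ± 0.54). Its other tested probe set was dim in all these groups and differed by 0.22 (limma adjusted p = 0.95 over all probe sets). The call of Zc3h12a thus depends on the probe set. Nfkbiz (-2.95 ± 0.13), the MAP kinase kinase kinase gene Map3k8 (-2.83 ± 0.44), Ccl7 (-2.70 ± 0.22), the small GTPase gene Gem (-2.48 ± 0.32), Lif (-1.91 ± 0.20) and Nfkbia (-1.69 ± 0.16) also differed. Map3k8 had 26.1 and 17.4 in KD 1 h cells and 17.7 and 21.8 in unstimulated KD cells. In WT cells it had 75.7 and 126.7 at 1 h and 9.2 and 3.4 unstimulated, so only the WT 1 h signals stood clear of 25.5. The size for Nfkbia depends on the probe set, with -1.49, -3.06, -3.60 and -2.48 at its other 4, each of which passed over all probe sets. All of these genes kept the call in each of the 12 fits that left out 1 array, while Il6 (-2.10 ± 0.39, adjusted p = 0.0154) kept it in 4 of 12. The KD signals of Il6 also lay under 25.5 with and without IL-1b.

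**Figure D4:**
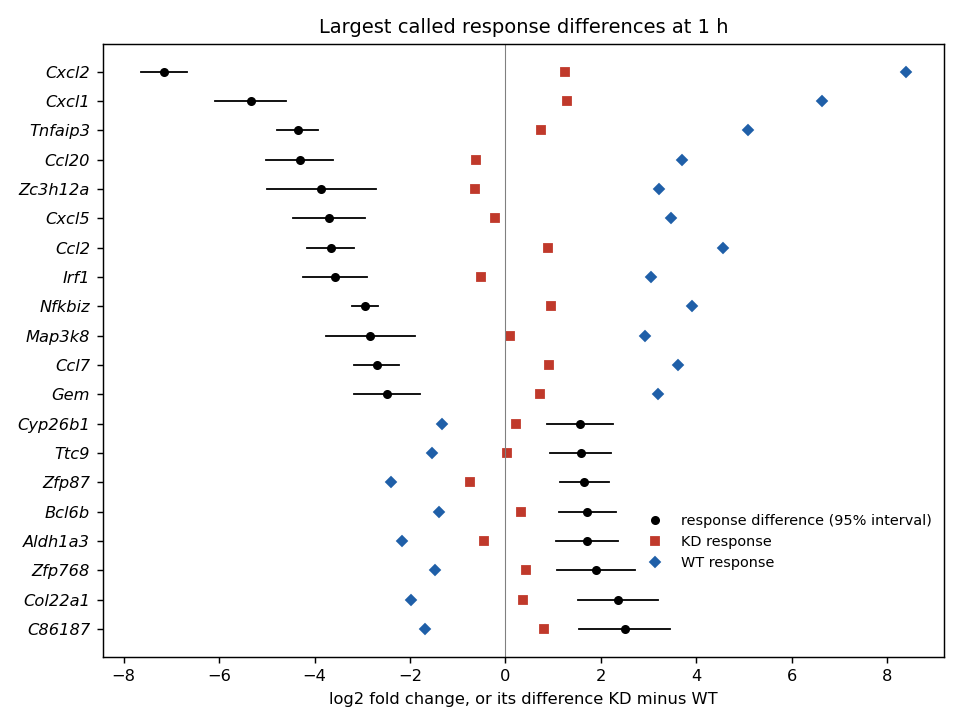
The 20 response differences that the naming rule takes, 12 lower and 8 higher in KD. Black points with lines are the difference KD minus WT with its 95% interval, red squares the KD response and blue diamonds the WT response, all log2. In the upper 12 genes the WT response runs from 2.92 (Map3k8) to 8.40 (Cxcl2) and the KD response from -0.64 (Zc3h12a) to 1.30 (Cxcl1). The KD responses of Cxcl2, Ccl20 and Cxcl5 rest on signals under the filter threshold. Those of Zc3h12a and Map3k8 rest on signals near or under it.

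A group of genes rose in both genotypes and still differed. Of the 106 that rose in both, 15 had a called difference, 14 of them smaller in KD. Zfp36, whose product tristetraprolin promotes decay of cytokine mRNAs, had 279.7 and 311 in KD 1 h cells and 95.6 and 133 in unstimulated KD cells. In WT cells it had 1990.4 and 1836 at 1 h and 162 and 208 unstimulated. Its difference was -2.00 ± 0.22 (adjusted p = 8.02e-05). Btg2, an antiproliferative gene, had 578 and 496 in KD 1 h cells and 144 and 175 in unstimulated KD cells. In WT cells it had 1848 and 1877 at 1 h and 243 and 235 unstimulated, a difference of -1.22 ± 0.18, and Csrnp1 and Atf3 differed by -1.38 ± 0.28 and -1.34 ± 0.28. With 1 array left out, Zfp36 and Btg2 kept this call in all 12 fits, Csrnp1 in 4 and Atf3 in 3. The 1 gene with the larger rise in KD cells was Sgk1, with 4823 and 4755 in WT 1 h cells and 2660.4 and 3117 in unstimulated WT cells (0.65 ± 0.14, adjusted p = 0.0436), and its difference kept the call in 2 of the 12 fits that left out 1 array. Its unstimulated level was lower in KD cells, at 958 and 1179.5. Dusp6 rose in KD cells and did not pass in WT cells (0.32 ± 0.16, adjusted p = 0.25), but its difference (0.89 ± 0.22) had adjusted p = 0.124.

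Few genes passed as moving in KD cells alone when the difference itself was tested. In simulated data this test called 30% of the log2 fold changes of 1 put into the KD 1 h arrays. A difference that did not pass is thus not shown to be absent. Over all genes tested, 0.49% had a called difference. Of 87 genes that rose in KD cells and passed in neither direction in WT cells, 3 had a called difference, and of 92 that fell, 3 had one. The 3 risers were Lhfpl2, a tetraspan protein gene, with 1280.2 and 1202 in KD 1 h cells and 763 and 692 in unstimulated KD cells (0.91 ± 0.16), Dusp22, an atypical phosphatase (1.16 ± 0.23), and Smap2, an ARF GTPase-activating protein gene (1.26 ± 0.25). The 3 that fell were Adam23, with 2534 and 2180.4 in KD 1 h cells and 3453 and 4084 in unstimulated KD cells (-0.83 ± 0.14), Irgq (-1.11 ± 0.21) and the Tnfaip2 probe set above (-1.47 ± 0.25). With 1 array left out the difference kept its call in 9 of 12 fits for Lhfpl2 and Adam23, 6 for Dusp22 and Irgq, 5 for Smap2 and 10 for Tnfaip2. Of the 18 differences that were higher in KD, 14 belonged to genes that fell in WT cells. Aldh1a3, a gene of retinoic acid synthesis, had 61.1 and 46.5 in KD 1 h cells and 71.7 and 79.4 in unstimulated KD cells. In WT cells it had 11.5 and 11 at 1 h and 72.3 and 84.2 unstimulated (1.72 ± 0.31). Its other tested probe sets were dimmer and did not pass, with differences of 0.55 and 1.14, so the call of Aldh1a3 depends on the probe set. Cyp26b1, which breaks retinoic acid down, differed by 1.56 ± 0.33, Zfp87 by 1.66 ± 0.24, Col22a1 by 2.36 ± 0.40 and Bcl6b by 1.71 ± 0.28. Zfp87 and Bcl6b kept the call in all 12 fits, Col22a1 in 11, Aldh1a3 in 9 and Cyp26b1 in 2. Ret fell in both, by less in KD cells (1.08 ± 0.20, adjusted p = 0.0154, kept in 7 of 12 fits).

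Levels after 4 h of IL-1b divided the genes that had risen by 1 h. The 1 h and 4 h comparisons share the unstimulated arrays, so the levels are given side by side without a test. Fos in KD cells had 109 and 98.3 unstimulated, 1611 and 1697 at 1 h and 192 and 320.2 at 4 h, and Nr4a1 had 37.4 and 62.2 unstimulated, 223 and 269.9 at 1 h and 46.1 and 42.8 at 4 h. At 4 h Egr3 had 465 and 621, above both unstimulated arrays, and Dusp1 had 868 and 725, which overlaps its unstimulated arrays. Ccl2 in KD cells had 60.6 and 53 unstimulated, 107 and 116 at 1 h and 1498 and 1499.9 at 4 h. Cxcl1 had 22.8 and 11.7 unstimulated, 73.8 and 36.7 at 1 h and 855 and 720.3 at 4 h, and Nfkbiz had 216 and 219 unstimulated, 453 and 412 at 1 h and 1614 and 1485 at 4 h. Ccl2, Cxcl1 and Nfkbiz thus had their highest KD level at 4 h, and Fos, Egr3, Nr4a1 and Dusp1 at 1 h. At 4 h the WT cells had 7026 and 6412 for Ccl2 and 6314 and 5984 for Cxcl1.

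**Figure D5:**
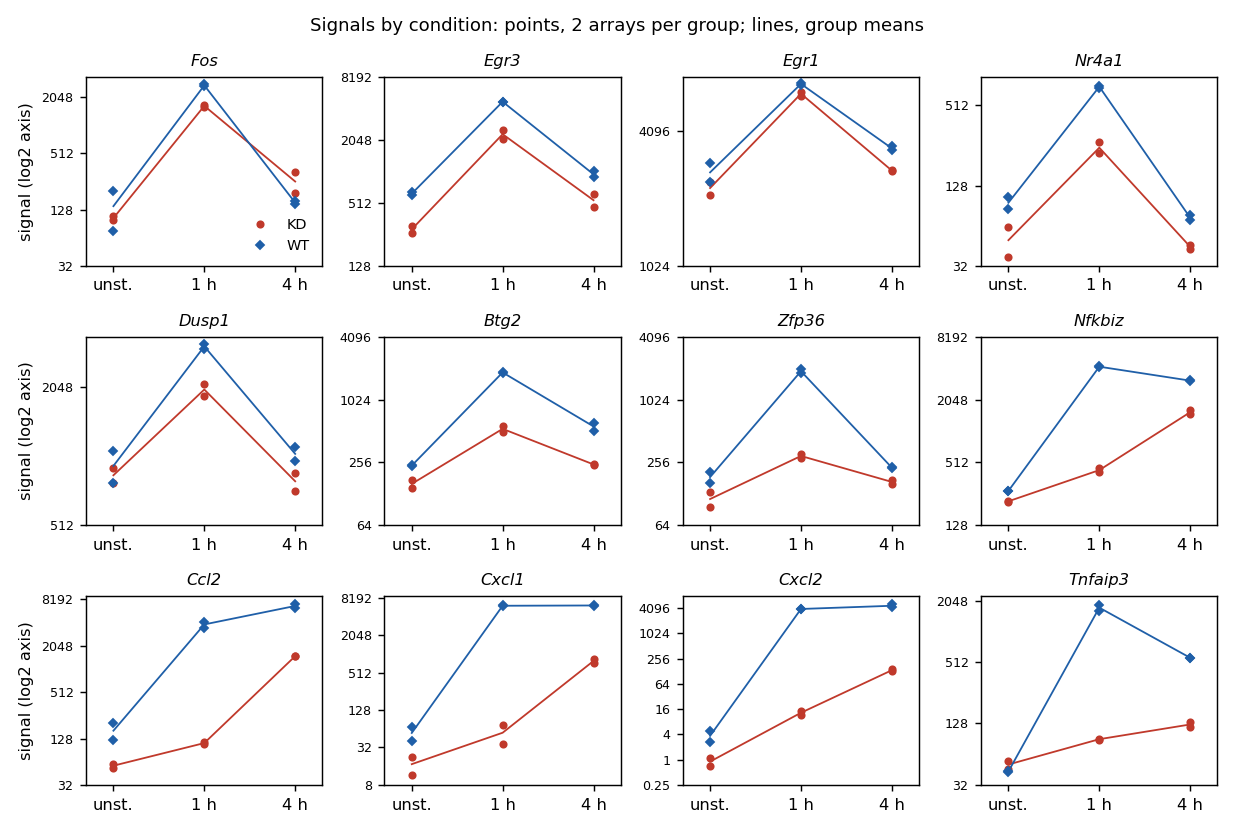
MAS5 signals of 12 genes without IL-1b and after 1 h and 4 h, KD in red and WT in blue; points are single arrays, lines join group means, and each panel has its own log2 axis. In KD cells Fos, Egr3, Egr1, Nr4a1, Dusp1, Btg2 and Zfp36 are highest at 1 h, and Nfkbiz, Ccl2, Cxcl1, Cxcl2 and Tnfaip3 at 4 h.

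Promoters of the 2 kinds of responders are shown for motifs of SRF, NF-kB and AP-1, named at the start, and for the cAMP response element, which was not. RefSeq windows of the 250 bases before the gene start (GRCm38.p6) were searched on both strands for the CArG box bound by SRF, the cAMP response element TGACGTCA, the kB site bound by NF-kB, and the AP-1 site TGANTCA. The CArG box was in 1.47% of all 32851 windows, the cAMP response element in 1.55%, the kB site in 7.25% and the AP-1 site in 6.75%. Of the 42 genes that rose at least 2-fold in KD cells, 34 had a window, and 4 of these held a CArG box (11.8%), 6 a cAMP response element (17.6%), 8 a kB site (23.5%) and 3 an AP-1 site (8.82%). Over all tested genes with a window the shares were 1.48%, 2.92%, 10.6% and 5.56% for the 4 motifs in this order. Over all genes that rose in KD cells and had a window, 4.67% held a CArG box, 8% a cAMP response element, 12.7% a kB site and 6.67% an AP-1 site. Of those that fell the shares were 4.62%, 1.73%, 13.3% and 6.36% for the same motifs, so the cAMP response element had the share farthest apart. Of the 43 genes with a lower response in KD cells, 34 had a window, of which 1 held a CArG box (2.94%), 3 a cAMP response element (8.82%), 9 a kB site (26.5%) and 5 an AP-1 site (14.7%). Matches are descriptions of these letters and were not tested. Fos and Nr4a1 held neither a CArG box nor a cAMP response element in this window.

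The windows below were chosen after the matches were seen, and capitals mark every match to any of the 4 motifs. Egr2 lies on the plus strand at chr10:67537619-67537868 (1 of its 5 windows). Dusp5 lies on the plus strand at chr19:53528895-53529144. Btg2 lies on the minus strand at chr1:134079156-134079405. Dusp1 lies on the minus strand at chr17:26508473-26508722. Cxcl2 lies on the plus strand at chr5:90903649-90903898. Cxcl1 lies on the plus strand at chr5:90890995-90891244. Tnfaip3 lies on the minus strand at chr10:19015411-19015660. Nfkbia lies on the minus strand at chr12:55492648-55492897.
Egr2: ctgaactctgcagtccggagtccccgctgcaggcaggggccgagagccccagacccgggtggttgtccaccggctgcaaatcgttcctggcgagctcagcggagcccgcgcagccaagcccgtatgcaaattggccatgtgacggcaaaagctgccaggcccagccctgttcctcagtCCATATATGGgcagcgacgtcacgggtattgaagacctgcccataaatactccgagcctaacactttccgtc
Dusp5: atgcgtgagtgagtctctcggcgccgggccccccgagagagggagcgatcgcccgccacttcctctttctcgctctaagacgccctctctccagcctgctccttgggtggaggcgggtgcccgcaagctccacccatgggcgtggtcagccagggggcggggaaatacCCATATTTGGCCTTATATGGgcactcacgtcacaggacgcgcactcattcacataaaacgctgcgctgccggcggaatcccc
Btg2: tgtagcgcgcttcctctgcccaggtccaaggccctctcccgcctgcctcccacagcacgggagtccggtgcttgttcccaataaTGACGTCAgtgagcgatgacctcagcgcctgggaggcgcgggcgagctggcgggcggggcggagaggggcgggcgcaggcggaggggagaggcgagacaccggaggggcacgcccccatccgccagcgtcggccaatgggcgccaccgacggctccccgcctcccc
Dusp1: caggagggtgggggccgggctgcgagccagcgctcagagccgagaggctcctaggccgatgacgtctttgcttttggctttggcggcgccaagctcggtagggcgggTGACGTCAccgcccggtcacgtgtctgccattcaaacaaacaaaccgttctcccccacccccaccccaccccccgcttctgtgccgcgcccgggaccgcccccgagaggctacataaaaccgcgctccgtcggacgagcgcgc
Cxcl2: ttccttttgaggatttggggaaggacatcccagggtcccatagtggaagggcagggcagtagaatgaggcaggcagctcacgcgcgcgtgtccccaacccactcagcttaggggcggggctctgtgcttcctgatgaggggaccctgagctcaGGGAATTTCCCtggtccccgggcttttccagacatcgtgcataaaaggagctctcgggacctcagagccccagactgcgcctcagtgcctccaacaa
Cxcl1: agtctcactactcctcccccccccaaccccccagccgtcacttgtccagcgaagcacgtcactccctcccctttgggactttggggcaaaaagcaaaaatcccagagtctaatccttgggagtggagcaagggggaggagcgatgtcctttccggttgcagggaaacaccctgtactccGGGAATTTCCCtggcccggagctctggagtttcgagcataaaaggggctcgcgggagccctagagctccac
Tnfaip3: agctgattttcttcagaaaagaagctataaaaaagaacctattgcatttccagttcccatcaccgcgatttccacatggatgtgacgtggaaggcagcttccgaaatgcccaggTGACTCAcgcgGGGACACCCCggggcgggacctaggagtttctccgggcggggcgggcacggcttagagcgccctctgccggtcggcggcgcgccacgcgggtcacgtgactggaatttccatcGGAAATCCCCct
Nfkbia: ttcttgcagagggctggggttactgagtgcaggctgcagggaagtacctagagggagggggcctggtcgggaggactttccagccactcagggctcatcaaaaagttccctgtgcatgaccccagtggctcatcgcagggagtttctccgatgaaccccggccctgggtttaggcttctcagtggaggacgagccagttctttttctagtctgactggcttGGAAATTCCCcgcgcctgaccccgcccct

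Egr2, Dusp5, Btg2 and Dusp1 rose at least 2-fold in KD cells. Btg2 and the last 4 genes of these lines had a called lower response in KD than in WT cells. Of the windows printed, that of Dusp5 holds 2 CArG boxes next to each other and that of Egr2 holds 1. Another Egr2 window holds a different CArG box, and a further one holds 2 overlapping kB matches. Btg2 and Dusp1 each hold the cAMP response element. In Cxcl2 and Cxcl1 the same 11 letters carry 2 overlapping kB matches. Tnfaip3 holds 2 separate kB sites and an AP-1 site in its printed window and no match in its other window, and Nfkbia holds 1 kB site.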

How the data were processed

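The deposited table holds 1 intensity per probe set and array, which the authors made with MAS5, per the submitters' processing notes; further steps and a build are not given in these sources. All 12 arrays had a 2% trimmed mean near 150, and values were used as deposited. Of 45101 probe sets, 34945 have 1 gene symbol, 932 several and 9160 none listed in GEO's platform annotation, and 34741 of the 34945 matched the GRCm38.p6 RefSeq table. Probe sets at 25.5, the median of all values, or above on at least 2 arrays were kept, and a gene was read from its brightest probe set on average, which gave 12456 genes. Group means were fitted with limma 3.58.1 in R 4.3.3 (lmFit, eBayes with a variance trend, 6 residual degrees of freedom) to log2(signal + 8) of all 12 arrays. The comparisons were KD 1 h against KD unstimulated, WT 1 h against WT unstimulated, and their difference, with Benjamini-Hochberg adjustment over all genes and calls at adjusted p under 0.05. A pseudocount of 8 understates the change of dim genes. The fit was tested on simulated data. Log2 fold changes of 1 and 2 put into the KD 1 h arrays were called in 53% and 92% of cases in the KD comparison. Of the 156 genes called there, 11 had been left unchanged. In the difference the shares were 30% and 80%. With no change put in, 1 gene was called in the KD comparison and 1 in the difference. Replicate numbers did not pair samples, since the 15 correlations of same-numbered deviations ran from -0.051 to 0.099.

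Named genes were the 15 strongest rises and the 12 strongest falls of called genes whose arrays were separate, up to 5 called members of each list, a fixed panel, the 12 lowest and 8 highest called differences, and the 8 smallest differences among genes called higher in both. Other genes named, such as Jun, Sgk1, Txnip and Gjb2, and the printed promoters were chosen after their values were seen. The members and lists were chosen with earlier results of these data known. Alternatives were other pseudocounts, filters, scalings, probe set rules, arrays in the fit, a replicate block and leaving out each array.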

Additional observations from a re-analysis of the deposited data

Results flagged for a closer look

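The 61 genes whose 1 h response differed between KD and WT cells by limma's test of the difference itself include 27 that the text names by its rule. Differences are KD minus WT on the log2 scale. Among chemokine and cytokine genes they were -7.15 for Cxcl2, -5.34 for Cxcl1, -4.31 for Ccl20, -3.70 for Cxcl5, -3.66 for Ccl2, -2.70 for Ccl7, -2.10 for Il6 and -1.91 for Lif. The KD signals of Cxcl2, Ccl20, Cxcl5 and Il6 lay under the filter threshold with and without IL-1b. The sizes for these genes thus have no measured KD change behind them. Among regulators of NF-kB and of mRNA decay the differences were -4.35 for Tnfaip3, -3.86 for Zc3h12a, -2.95 for Nfkbiz, -2.00 for Zfp36 and -1.69 for Nfkbia. Tnfaip2, a gene induced by tumour necrosis factor, had -1.47 at its brightest probe set. Its other tested probe sets had -0.43 and 0.06 and did not pass. The call of Zc3h12a also depends on the probe set. Irf1 had -3.57, Map3k8 -2.83, Gem -2.48 and Btg2 -1.22. The KD signals of Map3k8 and Zc3h12a lay near or under the filter threshold. The differences above 0 were 2.50 for C86187, 2.36 for Col22a1, 1.90 for Zfp768, 1.72 for Aldh1a3, 1.71 for Bcl6b, 1.66 for Zfp87, 1.57 for Ttc9, 1.56 for Cyp26b1 and 1.08 for Ret. The call of Aldh1a3 depends on the probe set. Of the 61, 28 kept their call in all 12 fits that left out 1 array. No cause of any difference was tested.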

How the results depend on the processing

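Depending on which array was left out, 94 to 646 genes were called in the KD response (407 with all arrays), 410 to 1008 in the WT response (930), 35 to 103 in the response difference (61) and 42 to 161 higher in both genotypes (106). The KD count was 271 with no filter on low signals, 237 with the mean of a gene's probe sets and 57 without a variance trend. Without that trend the WT response had 465 calls, the response difference 19 and the genes higher in both 25. Fitted on its own 2 groups, the WT response had 409. All other settings stayed within 1.5 times of these 4 counts. Why these counts moved was not tested, beyond the fewer arrays or other genes that some settings hold by construction. The replicate number as a block gave 382 calls in the KD response, 922 in the WT response, 64 in the response difference and 103 higher in both genotypes. The numbers were not taken as pairs, since same-numbered arrays did not deviate together. Of the named genes' KD responses under settings other than leaving out an array, 909 kept their side of the threshold, 129 lost the call, 2 gained it and 1 changed sign, which was Itga5 (0.02386 with the mean of its probe sets). Their response differences kept their side in 1002 cases, lost the call in 35 and gained it in 4. With 2 arrays a group and many signals near background, small changes of dim genes were not detectable.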
